A study of Mus musculus with 6 samples.

Results

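Transcript levels of 10 genes that neurons switch on after activity, and that encode synaptic or signalling proteins rather than transcription factors, were measured in the amygdala of mice 2 h after fear extinction training. The members were Arc, Homer1, Nptx2, Dusp1, Dusp6, Sik1, Gadd45b, Gadd45g, Btg2 and Ier2, taken as every probe set whose platform annotation gave 1 of these symbols. A probe set is a group of array probes read as 1 value for 1 transcript region. The 10 genes had 20 of the 45101 probe sets of the array. Of these, 15 probe sets of 9 genes had a mean log2 level of at least 4 over all mice and were among the 22877 tested. Sik1 fell under this limit on both of its probe sets and was described but not tested.

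The zinc diet group held 3 mice, replicates 3, 7 and 10, and the control diet group held 3 mice, replicates 1, 9 and 11, with 1 array each. The replicate number is the number in the sample title. All 6 were male 129S1/SvImJ (S1) mice, inbred animals that extinguish learned fear poorly, aged 8 to 10 weeks, and all had undergone extinction training. The labels call the diets ZnR or Zn and Ctrl and do not give their zinc content, so the direction of the zinc change is not stated here. No mouse without training was analysed here, so the induction of these genes by training was not measured.

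These genes are known as effector immediate early genes. Calcium and cyclic AMP signals in an active neuron lead to phosphorylation of transcription factors such as CREB, and the transcripts then appear within minutes without new protein synthesis. Their proteins alter glutamate receptors at the synapse (Arc, Homer1, Nptx2) or restrain the kinase and RNA pathways that carried the signal (Dusp1, Dusp6, Sik1, Btg2). In the amygdala, Arc is widely used as a marker of neurons engaged in fear learning and extinction.

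The arrays were alike in bulk. Pairwise correlations over the tested probe sets lay between 0.991 and 0.996, and array medians lay between 4.04 and 4.09 on the log2 scale. The difference between the 3′ and 5′ control probe sets of Gapdh, a measure of RNA integrity, was -0.18 to -0.12 under the zinc diet and -0.15 to -0.044 under the control diet. That of Actb, the beta-actin gene, was 0.79 to 0.90 under the zinc diet and 0.75 to 0.94 under the control diet. All 7 amygdala markers with a probe set, of 8 listed, had a mean of at least 4. Their mean level was 8.83 to 9.04 under the zinc diet and 8.72 to 8.75 under the control diet, but the single markers disagreed. Rspo2 and Cyp26b1 lay higher in every zinc diet mouse than in every control mouse. Lypd1 lay lower, at 10.63, 10.49 and 10.74 in zinc diet mice against 11.22, 11.55 and 11.30 in control mice. The other amygdala markers overlapped between the diets. The mean level of striatal spiny neuron markers also separated the diets, at 8.33 to 8.86 under the zinc diet and 6.51 to 6.97 under the control diet. All 7 measured striatal markers had a mean of at least 4. Choroid plexus markers stood at 8.55 in control diet replicate 9 and at 5.02 to 5.84 in the other 5 mice. In a dissected tissue, fewer cells of a type and less RNA per cell cannot be told apart. Replicates were separate mice.

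Arc, which encodes a protein that promotes removal of AMPA receptors from the synapse, varied more between mice than nearly all other transcripts. Its log2 level was 8.45, 7.22 and 7.14 in zinc diet mice 3, 7 and 10, against 8.18, 6.83 and 7.05 in control mice 1, 9 and 11. In each diet 1 mouse was high and the other 2 were low, so the diets overlapped across nearly their whole range. Only 0.988% of tested probe sets spanned a range as wide as Arc's 1.62 log2 units, and the median range was 0.38. The diets averaged 7.60 ± 0.73 under the zinc diet and 7.35 ± 0.72 under the control diet (SD, n = 3 each), a difference of 0.25 ± 0.46 (SE; limma adjusted p = 0.96). Without zinc diet replicate 3 this difference was -0.17, and without control diet replicate 9 it was -0.011.

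**Figure D1:**
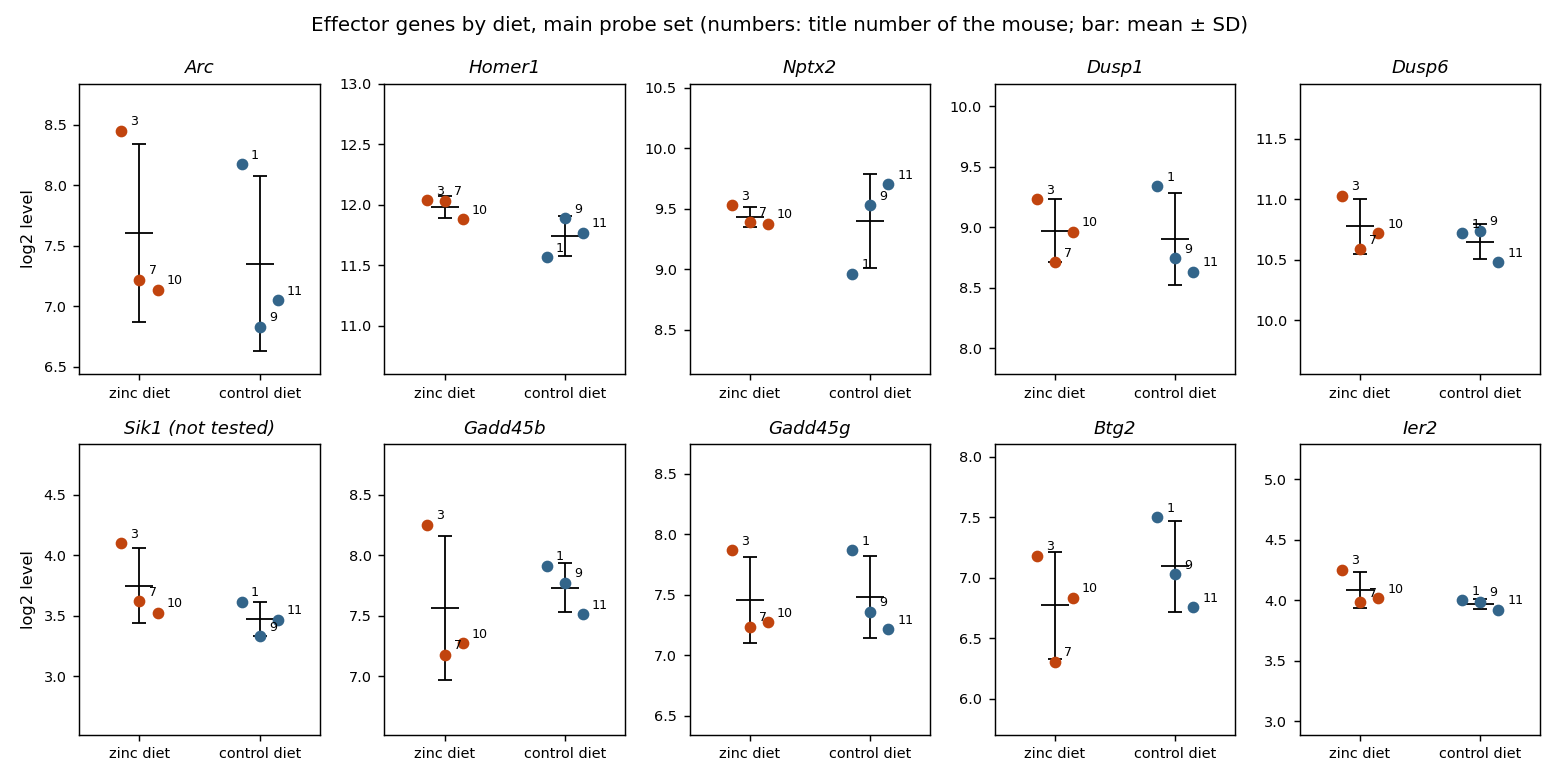
Log2 level of the main probe set (highest mean) of each of the 10 genes in 3 zinc diet mice and 3 control mice, each point 1 mouse with its title number, and bars the mean ± SD; every panel spans the same number of log2 units. The diets overlap in every panel, and the mice numbered 3 and 1 are the highest of their diets for Arc, Dusp1, Gadd45b, Gadd45g and Btg2. No order is read for Sik1 and Ier2, whose levels are near background.

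Homer1 encodes a postsynaptic scaffold whose long forms tether metabotropic glutamate receptors, and whose short, activity-induced form disrupts that tether. The supplied annotation does not say which of its 6 probe sets read the short transcript, and they share 1 gene, so they are not independent. On the probe set with the highest level, 1436387_at, zinc diet mice stood at 12.04, 12.03 and 11.88 and control mice at 11.56, 11.89 and 11.77. Control mouse 9 lay just above zinc diet mouse 10, and this alone kept the diets from separating. The means were 11.98 ± 0.090 under the zinc diet and 11.74 ± 0.16 under the control diet (SD, n = 3 each), with a difference of 0.24 ± 0.11 (SE; limma adjusted p = 0.79). This was the smallest unadjusted p for diet among the tested members, 0.056 by limma.

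The 4 other tested probe sets of Homer1 had differences between 0.087 ± 0.090 (1437363_at) and 0.31 ± 0.21 (1421768_a_at; SE), again positive. On 1439662_at the zinc diet mice stood at 10.95, 11.02 and 10.98, close together, against 10.54, 10.99 and 10.72 in control mice. The probe sets differed in which control mouse was lowest. It was mouse 1 on 1436387_at, 1437363_at and 1439662_at, and mouse 11 on 1425710_a_at (8.40, 8.09 and 8.12 in zinc diet mice, against 7.81, 8.45 and 7.68 in control mice) and 1421768_a_at. The size of the difference depended on single control mice. Without control diet replicate 1 it was 0.15 on 1436387_at, 0.016 on 1437363_at and 0.13 on 1439662_at. Without control diet replicate 11 it was 0.077 on 1425710_a_at and 0.10 on 1421768_a_at, and without control diet replicate 9 it was 0.46 and 0.51 on these 2. They carry the suffix that marks probes shared by several transcripts of 1 gene. The sixth, 1425671_at, lay at 2.83 to 3.30 and was not tested.

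Nptx2, also known as Narp, encodes a secreted pentraxin that gathers AMPA receptors at excitatory synapses onto interneurons. It stood at 9.53, 9.39 and 9.38 in zinc diet mice and at 8.96, 9.53 and 9.70 in control mice. Control mice 1 and 11 were the lowest and the highest of all 6, and the zinc diet mice fell between them. The difference was 0.032 ± 0.19 (SE; limma adjusted p = 0.99), with an SD of 0.084 under the zinc diet and 0.39 under the control diet. Its second probe set lay at 3.81 to 4.19 and was not tested.

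Dusp1 and Dusp6 encode phosphatases that switch off MAP kinases, Dusp1 in the nucleus and Dusp6 mainly in the cytoplasm with a preference for ERK. Dusp1 stood at 9.23, 8.71 and 8.96 in zinc diet mice and at 9.34, 8.74 and 8.63 in control mice. As for Arc, mouse 3 and mouse 1 were the highest of their diets. The diet difference of Dusp1 was 0.065 ± 0.21 (SE; limma adjusted p = 0.98). Dusp6 was more even, at 11.03, 10.59 and 10.72 in zinc diet mice against 10.72, 10.74 and 10.48 in control mice, with a difference of 0.13 ± 0.14 (SE; limma adjusted p = 0.91) that was 0.0045 without zinc diet replicate 3. Zinc diet mouse 3 was again the highest, whereas control mouse 1 lay level with control mouse 9.

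Sik1 encodes a salt-inducible kinase that holds CREB coactivators in the cytoplasm. Its higher probe set read 4.10, 3.62 and 3.52 in zinc diet mice and 3.61, 3.33 and 3.47 in control mice. Its other probe set lay between 2.00 and 2.41. Low values on this array cannot be told from background, so no order of the mice is read from them.

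Gadd45b and Gadd45g encode small stress-inducible proteins that activate MAP3K4 and have been tied to active DNA demethylation in neurons. Gadd45g stood at 7.87, 7.23 and 7.27 in zinc diet mice and at 7.87, 7.36 and 7.22 in control mice. The high mouse of each diet reached the same level, and the diet difference was -0.022 ± 0.23 (SE; limma adjusted p = 0.99). Gadd45b, on 1450971_at, stood at 8.25, 7.18 and 7.27 in zinc diet mice and at 7.92, 7.77 and 7.52 in control mice, a difference of -0.17 ± 0.29 (SE; limma adjusted p = 0.95). Zinc diet mice held both ends of this range. The second tested probe set, 1449773_s_at, of a design that can match related transcripts, gave a difference of 0.012 ± 0.19 (SE), so the 2 probe sets did not share a sign. The third, 1420197_at, lay at 2.47 to 2.78 and was not tested.

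Btg2 encodes an antiproliferative protein that recruits the deadenylase complex to messenger RNAs. On 1416250_at it stood at 7.18, 6.31 and 6.83 in zinc diet mice and at 7.50, 7.03 and 6.76 in control mice. Zinc diet mouse 7 was the lowest of all 6, and control mouse 1 the highest. The difference of -0.32 ± 0.27 (SE; limma adjusted p = 0.88) was the most negative among the members and did not pass. Without zinc diet replicate 7 it was -0.087. Its second probe set, 1448272_at, differed by -0.098 ± 0.15 (SE). Ier2, an immediate early gene for a nuclear protein, was close to the test limit, at 4.25, 3.99 and 4.02 in zinc diet mice and 4.001, 3.99 and 3.92 in control mice. Its difference was 0.12 ± 0.094 (SE; limma adjusted p = 0.88), and 0.031 without zinc diet replicate 3.

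**Figure D2:**
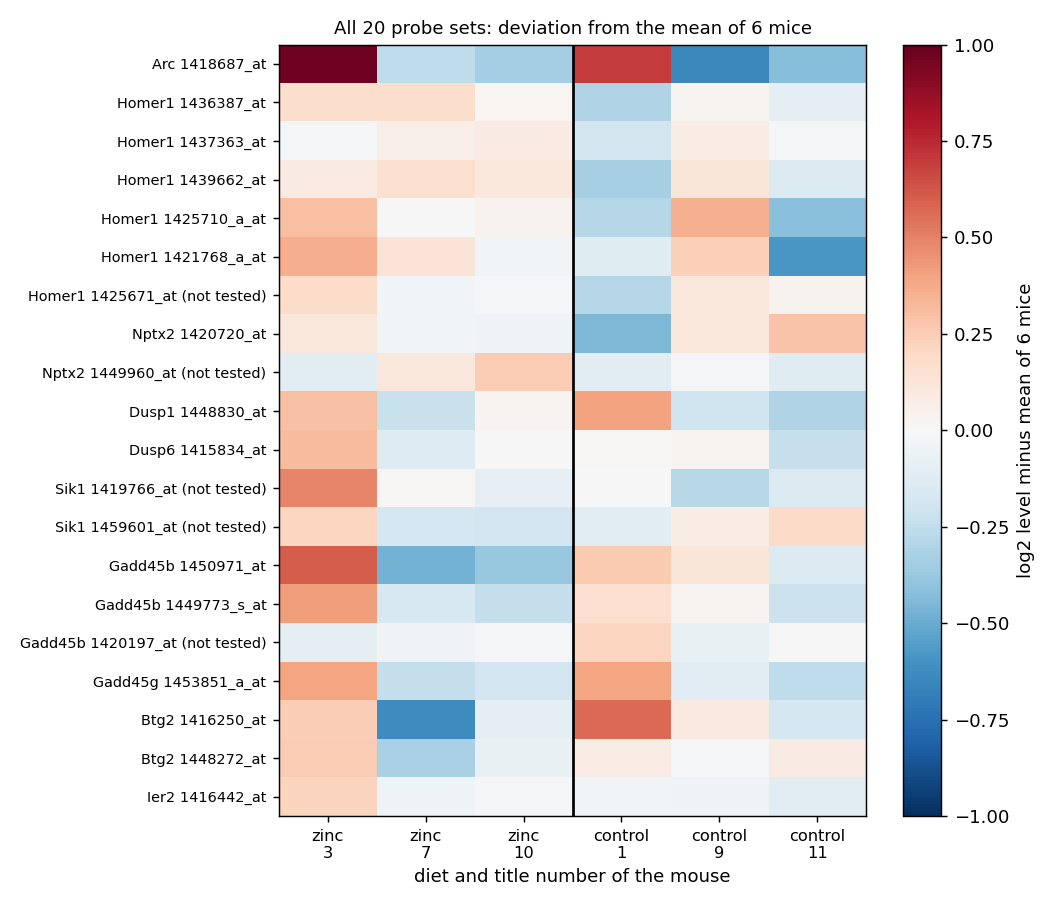
Deviation of each of the 20 probe sets (rows) from its mean over the 6 mice (columns, zinc diet left of the line and control diet right), in log2 units, red above and blue below. The columns of zinc diet mouse 3 and control mouse 1 are red for Arc, Dusp1, Gadd45b (both tested probe sets), Gadd45g and Btg2, while Homer1 and Nptx2 are blue in control mouse 1.

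Set against the diets, the members showed no difference past the threshold. Of the 15 probe sets tested, 0 reached limma's adjusted threshold of 0.05 and 0 had an unadjusted p under 0.05, where 0% and 6.38% of all probe sets tested did. In 0 of the 20 probe sets, tested or not, did the 3 zinc diet mice lie all above or all below the 3 control mice, where 12% of tested probe sets were separated, 6.66% with zinc diet mice above and 5.33% with them below. On the main probe sets 6 of the 9 tested genes had a higher mean in zinc diet mice, where 53% of tested probe sets did, and the median difference was 0.065 against 0.0091 over all probe sets tested. Striatal spiny neuron markers separated the diets, as given above. The amygdala markers did so in their mean, and singly for Rspo2 and Cyp26b1 (higher under the zinc diet) and Lypd1 (lower). The part of either in these differences was not tested. With the title number as a covariate, the difference was 0.20 ± 0.21 (SE) for Arc and 0.25 ± 0.11 (SE) for Homer1, and neither passed (limma adjusted p = 0.87 and 0.69).

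**Figure D3:**
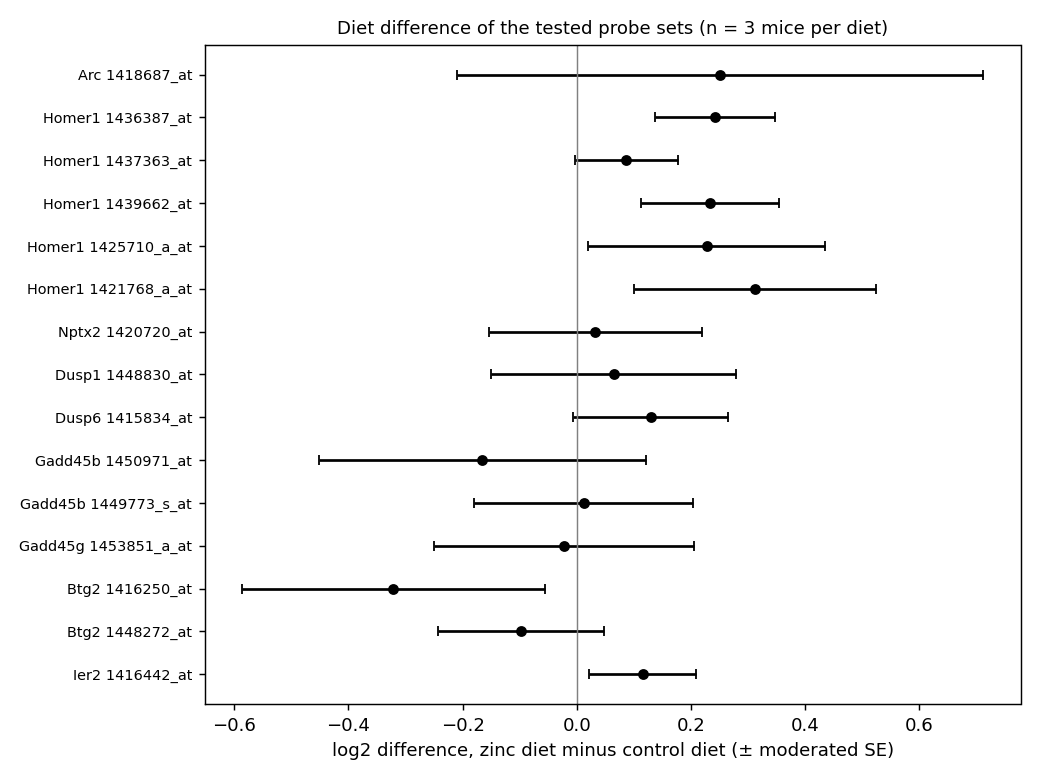
Log2 difference of zinc diet minus control diet with its moderated SE for the 15 tested probe sets (3 mice per diet). The points lie between -0.32 (Btg2) and 0.31 (Homer1 1421768_a_at), and all 5 Homer1 points lie right of 0.

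The spread seen within both diets was set against the number in the sample title, which the labels repeat in the name of the array without saying what it stands for. The numbers were 3, 7 and 10 in zinc diet mice and 1, 9 and 11 in control mice, with means of 6.67 under the zinc diet and 7 under the control diet, so diet and number were nearly balanced. The mice numbered 1 and 3, 1 of each diet and the farthest from the median number of 8, were the 2 highest of 6 for the main probe sets of 5 of the 9 tested genes, namely Arc, Dusp1, Gadd45b, Gadd45g and Btg2. Over all tested probe sets, these mice were the 2 highest in 7.16%, and the 2 lowest in 5.69%, which held for 0 of the 9. This way of counting was chosen after the values were seen. The lower of these 2 mice exceeded the highest of the other 4 by 0.95 log2 units for Arc, 0.51 for Gadd45g, 0.27 for Dusp1, 0.15 for Btg2 and 0.14 for Gadd45b. For Dusp6 and Ier2 the second of these mice fell short of the highest of the other 4 by 0.020 and 0.016 log2 units. Ier2 lay near background, so no order of its mice is read. Gadd45b had mice 1 and 3 highest on its second tested probe set, 1449773_s_at, as well. Btg2 did not on its second probe set, 1448272_at, where control mouse 11 at 5.71 lay above control mouse 1 at 5.70.

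**Figure D4:**
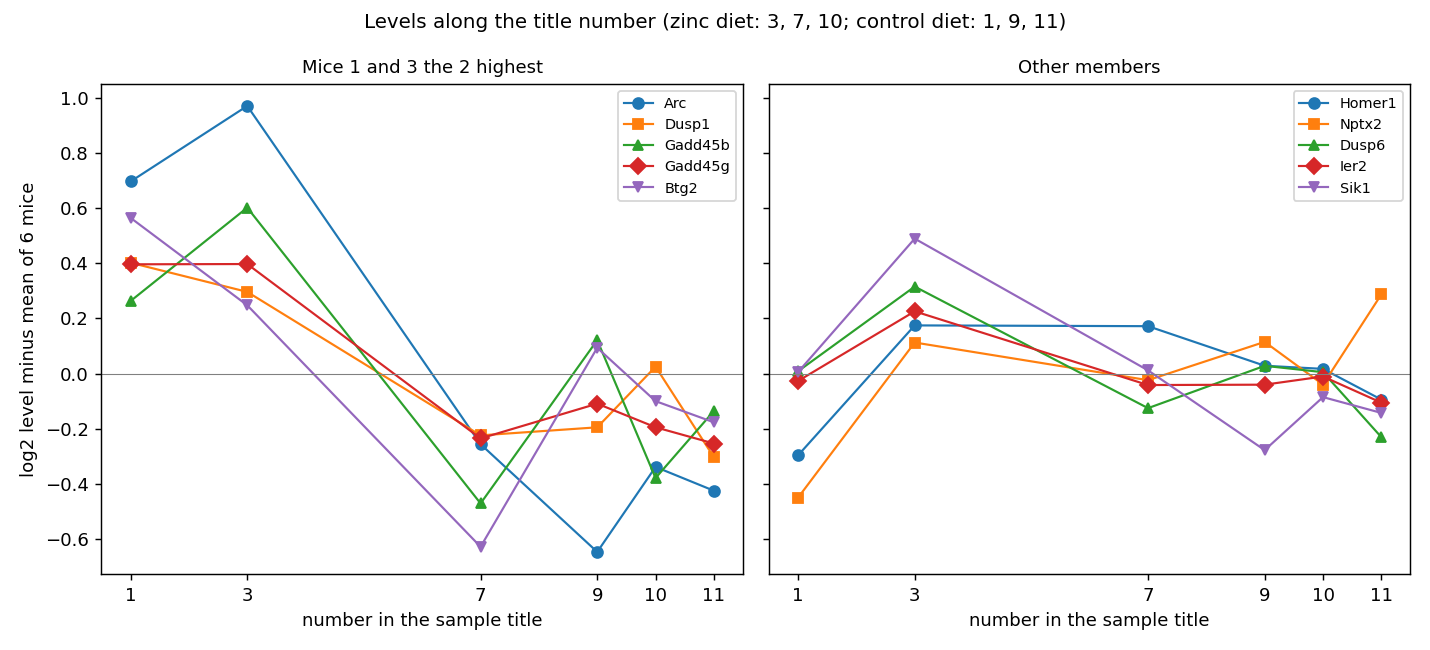
Log2 level of the main probe set minus its mean over 6 mice (vertical axis) against the number in the sample title (horizontal axis), with 1 line per gene; zinc diet mice are 3, 7 and 10 and control mice 1, 9 and 11. Left, the 5 genes in which mice 1 and 3 are the 2 highest; right, the other 5 members, with Homer1 and Nptx2 lowest in mouse 1.

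Fitted as a line over the 6 mice, the log2 level of Arc changed by -1.50 ± 0.28 (SE) over the range of numbers from 1 to 11 (limma adjusted p = 0.16). The corresponding slopes were -0.72 ± 0.14 for Gadd45g (limma adjusted p = 0.18), -0.63 ± 0.16 for Dusp1 (0.28), -0.67 ± 0.30 for Gadd45b (0.55) and -0.64 ± 0.31 for Btg2 (0.59). None passed over all probe sets, of which limma called 0%. At an unadjusted p under 0.05 the slope was negative for 3 of the 9 main probe sets, Arc, Gadd45g and Dusp1, where 6.04% of all probe sets tested were so, and positive for 0 of 9, where 3.44% were so. Homer1 (0.10 ± 0.19) and Nptx2 (0.43 ± 0.19) had positive slopes on their main probe sets that did not pass either. The other tested probe sets of Homer1 ran both ways. Their slopes were 0.18 (1437363_at), 0.20 (1439662_at), -0.044 (1425710_a_at) and -0.33 (1421768_a_at). Without mice 1 and 3 the slope was -0.30 for Arc and -0.038 for Gadd45g, and without control diet replicate 1 that of Nptx2 was 0.089 and that of Btg2 -0.31. These slopes of fewer mice are still scaled to the range from 1 to 11. Without mice 1 and 3 the numbers span only 7 to 11, so the scaled slopes reach beyond the mice fitted. With diet as a term the slope of Arc was -1.48 ± 0.28 (SE; limma adjusted p = 0.20).

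The relation was not a steady gradient. For Arc and Gadd45g the values fell into 2 separate sets, mice 1 and 3 above and the other 4 below, so a correlation over all 6 is not given. Among the other 4 mice, r with the number was -0.30 for Arc and -0.10 for Gadd45g. For Dusp1, Pearson's r over the 6 mice was -0.87 (exact permutation p = 0.033, 0.58 after Benjamini-Hochberg adjustment over all 22877 probe sets) and Spearman's rho was -0.77 (exact permutation p = 0.10, adjusted 0.74), both two-sided. Without mice 1 and 3, r was 0.057, so the relation rests on these mice. The same held for Gadd45b, with r of -0.66 over 6 mice (exact permutation p = 0.17, adjusted 0.77; rho -0.54, exact permutation p = 0.30, adjusted 0.90) and 0.37 without them. Btg2 turned likewise, with r of -0.64 over 6 mice (exact permutation p = 0.17, adjusted 0.78; rho -0.66, exact permutation p = 0.18, adjusted 0.82) and 0.64 without them.

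RNA quality and cell type markers were read in the same mice. The 3′ minus 5′ difference of Gapdh was -0.18 in zinc diet mouse 3 and -0.044 in control mouse 1, the lowest and the highest of all 6. For Actb these mice were close, at 0.79 in zinc diet mouse 3 and 0.78 in control mouse 1. Actb stood at 0.79 and 0.75 in mice 7 and 9, and at 0.90 and 0.94 in mice 10 and 11. Levels of choroid plexus markers were 5.84 in zinc diet mouse 3 and 5.70 in control mouse 1. Levels of striatal markers were 8.33 in zinc diet mouse 3 and 6.51 in control mouse 1. The part of these measures in the pattern was not tested.

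Promoter sequence is shown for the members that were high together in mice 1 and 3, and for Homer1, which was not, where RefSeq (GRCm38.p6) supplied an entry. Of the 10 genes, 6 had entries, 7 in all. Arc, Nptx2, Sik1 and Ier2 had no entry. The entry of Dusp6, not shown, held none of the letters searched. Homer1 had 2, and the one not shown held none of the letters searched. Each stretch is the 250 bases upstream of the transcription start, 5′ to 3′ on the strand of the gene. Capitals mark TGACGTCA, the full cyclic AMP response element that CREB binds, its shorter form TGACG, and the TATA box letters TATAAA, searched on both strands. The full element contains the shorter form. Btg2 lies upstream at chr1:134079156-134079405 on the minus strand, Dusp1 at chr17:26508473-26508722 on the minus strand, Gadd45b at chr10:80929841-80930090, Gadd45g at chr13:51846425-51846674 and Homer1 at chr13:93303507-93303756, the last 3 on the plus strand.
Btg2: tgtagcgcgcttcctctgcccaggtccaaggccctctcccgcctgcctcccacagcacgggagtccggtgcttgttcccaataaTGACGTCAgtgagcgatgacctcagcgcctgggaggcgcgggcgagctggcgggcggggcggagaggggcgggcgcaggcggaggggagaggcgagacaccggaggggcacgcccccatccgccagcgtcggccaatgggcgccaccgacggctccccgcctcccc
Dusp1: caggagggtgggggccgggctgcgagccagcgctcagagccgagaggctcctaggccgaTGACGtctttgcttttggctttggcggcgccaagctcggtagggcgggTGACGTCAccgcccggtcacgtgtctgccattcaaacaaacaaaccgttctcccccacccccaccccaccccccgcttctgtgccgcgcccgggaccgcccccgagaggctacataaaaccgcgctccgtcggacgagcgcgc
Gadd45b: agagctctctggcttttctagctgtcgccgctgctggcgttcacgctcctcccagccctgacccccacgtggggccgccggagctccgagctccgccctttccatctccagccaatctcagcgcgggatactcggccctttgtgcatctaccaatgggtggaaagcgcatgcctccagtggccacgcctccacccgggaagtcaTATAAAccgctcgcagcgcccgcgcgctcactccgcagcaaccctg
Gadd45g: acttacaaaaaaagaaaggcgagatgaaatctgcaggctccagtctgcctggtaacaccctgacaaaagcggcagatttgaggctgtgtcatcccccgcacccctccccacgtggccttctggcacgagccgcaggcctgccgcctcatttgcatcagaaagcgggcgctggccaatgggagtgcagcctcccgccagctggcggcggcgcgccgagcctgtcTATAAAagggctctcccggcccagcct
Homer1: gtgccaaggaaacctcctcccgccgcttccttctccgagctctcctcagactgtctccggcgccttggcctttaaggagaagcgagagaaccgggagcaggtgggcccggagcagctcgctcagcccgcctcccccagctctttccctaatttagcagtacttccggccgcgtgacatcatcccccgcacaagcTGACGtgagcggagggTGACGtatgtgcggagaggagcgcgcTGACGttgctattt

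Of the 7 member promoters, 2 held TGACGTCA, those of Btg2 (166 to 159 bases before the start) and Dusp1 (143 to 136 bases before), against 1.55% of all 32851 promoter windows of this length. The shorter form was in 3 of 7, with 3 separate copies in Homer1 between 56 and 10 bases before the start and an extra copy in Dusp1, against 17.8% of all windows. TATAAA was in those of Gadd45b and Gadd45g, 46 to 41 and 27 to 22 bases before the start, against 12.4% of all windows. A match is a description of the letters and not of binding.

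Other genes induced by activity were read beside the members. Of 25 inducible transcription factors, 21 were tested, and mice 1 and 3 were the 2 highest in 9 of them, or 42.9%, against 55.6% of the members' main probe sets and 7.16% of all tested probe sets. Fos, the prototype of the class, stood at 10.91, 9.51 and 9.67 in zinc diet mice and at 10.73, 9.80 and 9.66 in control mice, with a slope of -1.33 over the range of numbers (limma adjusted p = 0.21). Nr4a1, an orphan nuclear receptor gene, had a slope of -0.98 (limma adjusted p = 0.15), and Egr2, a zinc finger factor gene, had one of -0.78 (limma adjusted p = 0.17). The list's median slope was -0.35, against -0.63 for the members and 0.013 over all probe sets tested, and 0 of its 21 passed. Its slopes were negative in 17 and positive in 4, where 46.7% of all probe sets tested had a negative slope.

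Companion effectors, 47 symbols (older and newer names of a gene among them) of other induced genes that are not transcription factors, had 39 tested. Mice 1 and 3 were the 2 highest in 7 of these, or 17.9%. Tiparp, which encodes a poly-ADP-ribose polymerase family member, had the smallest p for the number, with a slope of -0.60 (limma adjusted p = 0.30), followed by Ier5l (-0.41, adjusted 0.37) and the clock gene Per1 (-0.38, adjusted 0.40). The median slope was -0.10. Genes whose proteins work with the members, such as glutamate receptor, MAP kinase and CREB coactivator genes, had 24 tested of 32. Mice 1 and 3 were the 2 highest in 1 of these, or 4.17%, and the median slope was 0.033. The smallest p-values for the number among the partners belonged to Sh3gl3 (0.18, adjusted 0.73), Homer2 (0.16, adjusted 0.79) and Mapk8 (0.15, adjusted 0.80), with positive slopes.

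The genes outside the members whose profile over the 6 arrays was most like that of Arc were Rab14 (1439687_at, r = 0.989), which encodes a vesicle traffic GTPase, Jmjd6 (r = 0.989), Gabrg1 (r = 0.988), a GABA-A receptor subunit gene, Ankhd1 (r = 0.984) and Nab2 (r = 0.982), which encodes a corepressor of EGR factors. These r values are a description over 6 arrays, chosen as the highest of 19634 probe sets. In all 5 genes mice 1 and 3 were the 2 highest, as for Arc, which follows largely from choosing them by likeness to Arc. Rab14 stood at 7.84, 7.39 and 7.36 in zinc diet mice and at 7.64, 7.23 and 7.32 in control mice. Nab2 stood at 6.57, 6.25 and 6.22 in zinc diet mice and at 6.56, 6.04 and 6.17 in control mice. Their ranges, 0.60 and 0.53 log2 units, were narrower than that of Arc. Among the members, Gadd45g (r = 0.935) and Dusp1 (r = 0.894) were closest to Arc, with 47 and 128 other probe sets as close or closer, while Nptx2 had an r of -0.458. The tested probe sets of Homer1 ranged from -0.659 (1437363_at) to 0.306 (1421768_a_at), with -0.110 on 1436387_at. Arc's values fell into 2 sets, mice 1 and 3 above, so r with Arc largely restates which genes were high in those mice.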

How the data were processed

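RNA from the dissected amygdala of 6 mice was read on Affymetrix Mouse430_2 arrays, 1 per mouse. Per the labels' protocols, 500 ng of total RNA was labelled by 3′ in vitro transcription. The authors deposited levels per probe set, which were taken as log2. The submitters' processing notes list R 2.15.1 and GCRMA 2.28.0, with no role given. That the scale is log2 was inferred from the range of the values, and centring is unknown. Without scanner files no detection call was at hand, and array number limits precision.

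Of 45101 probe sets, 64 controls were left out. The others had 1 symbol (34945), several (932) or none (9160). Those with a mean of at least 4 were tested with limma 3.58.1 in R 4.3.3 (lmFit, eBayes), on diet or on title number, with Benjamini-Hochberg adjustment over 22877 probe sets and a threshold of 0.05. Correlations used all 720 permutations, whose smallest possible p is 0.00278. The fit was also run on simulated data with independent noise and shifts larger than the members' diet differences. That run does not test differences of their size or a pattern shared between probe sets.

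Alternatives were other filters, normalizations, moderation, array weights, a floor, gene means, covariates and left-out mice. The members and lists were chosen with earlier results of these data known. A gene's main probe set has the highest mean. The naming rule took all members, from each list up to 3 genes with the smallest unadjusted p for diet and up to 3 for number, and the 5 genes most like Arc.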

Additional observations from a re-analysis of the deposited data

How the results depend on the processing

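No paired analysis was possible because the diets share no replicate number. Over 231 values of the 15 tested probe sets under the alternatives for diet, and 246 for the title number, 0 passed the adjusted threshold (smallest limma adjusted p = 0.43 and 0.10), 19 and 13 changed sign, and the others kept theirs. The count of all probe sets past the threshold for diet, 0, was 2 with a mean of at least 6, 3 with trend and robust eBayes and 1 each with gene means and with the title number as a covariate. For the title number it was 26 without a filter, 4 with a mean of at least 6, 21 with trend and robust eBayes, 1 with diet as a term and 10 on ranks, and 0 to 26 over left-out mice (26 without control diet replicate 9). At an unadjusted p under 0.05, the diet count of 1460 was 853 without zinc diet replicate 7, 2241 without control diet replicate 1, 2345 with array weights, 2429 without a filter, 927 with gene means (11221 genes tested) and, chosen after seeing the data, 2475 without mice 1 and 3. The count for the number, 2169, was 3830 without a filter, 1247 with a mean of at least 6, 922 with gene means and 723 without mice 1 and 3. The causes were not tested, beyond the smaller or larger number of probe sets or mice in some of these fits.

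Among diet differences that changed sign, Nptx2 was -0.085 with array weights and -0.23 without mice 1 and 3, and Gadd45b 1449773_s_at was -0.0087 with array weights, -0.0054 with the number as a covariate and -0.11 without mice 1 and 3. Over left-out mice the differences ranged from -0.17 to 0.66 for Arc, -0.19 to 0.18 for Nptx2, -0.071 to 0.28 for Dusp1, -0.51 to 0.029 for Gadd45b and -0.19 to 0.13 for its second probe set, -0.23 to 0.17 for Gadd45g, and -0.25 to 0.041 for Btg2 1448272_at. Slopes without mice 1 and 3 are scaled to the full range from 1 to 11, though the numbers left span only 7 to 11. On this extrapolated scale they turned to -0.63 for both Homer1 1436387_at and 1439662_at, and -0.16 for 1437363_at. They turned to 0.047 for Dusp1, 0.58 for Gadd45b, and 1.15 and 0.95 for the probe sets of Btg2. With array weights Homer1 1436387_at was -0.031. Over left-out mice the Homer1 slopes ranged from -0.32 to 0.26 (1436387_at), -0.17 to 0.39 (1439662_at), -0.59 to 0.29 (1425710_a_at) and -0.88 to 0.040 (1421768_a_at). Mice 1 and 3 were the 2 highest for 5 of the 9 tested genes under quantile normalization, median centring, a floor of 4 and gene means as well. Values near 4 cannot be told from background.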

Other observations

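Among the activity-induced genes read beside the members, none passed for diet over all probe sets, and those with the smallest p-values are given here. Rem2, which encodes a small GTPase that limits dendritic branching, stood at 6.597, 6.52 and 6.43 in zinc diet mice and at 5.84, 6.12 and 5.93 in control mice, a log2 difference of 0.55 ± 0.099 (SE; limma adjusted p = 0.38). Ccn2, a secreted matrix protein gene, differed by 0.48 ± 0.16 (SE; limma adjusted p = 0.72) and Ier5 by 0.48 ± 0.14 (SE; limma adjusted p = 0.67). In these 3 genes every zinc diet mouse lay above every control mouse. Of the 39 tested companion effectors, 8 were separated with zinc diet mice above, where 6.66% of tested probe sets were, and 1 with zinc diet mice below, where 5.33% were. The median difference of the list was 0.081, against 0.0091 over all probe sets tested.

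Of the 21 tested inducible transcription factors, 5 were separated with zinc diet mice above, where 6.66% of tested probe sets were, and 0 with them below, where 5.33% were. Nr4a2, an orphan nuclear receptor gene, differed by 0.40 ± 0.099 (SE; limma adjusted p = 0.55), Crem, a cyclic AMP response modulator gene, by 0.36 ± 0.12 (SE; limma adjusted p = 0.72) and Klf4 by 0.49 ± 0.18 (SE; limma adjusted p = 0.75). Among the partners, Gria4, an AMPA receptor subunit gene, differed by 0.34 ± 0.11 (SE; limma adjusted p = 0.72), the CREB coactivator gene Crtc3 by -0.19 ± 0.090 (SE; limma adjusted p = 0.81) and the dynamin gene Dnm2 by -0.15 ± 0.079 (SE; limma adjusted p = 0.82). Striatal spiny neuron markers differed between the same diets (8.33 to 8.86 under the zinc diet, 6.51 to 6.97 under the control diet). Their part in the gene differences, which ran in both directions, was not tested.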
